A study of Mus musculus with 59 samples.

Results

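The Timm and Tomm genes, which encode most of the machinery that carries proteins into mitochondria, were followed across 59 RNA sequencing libraries of mouse ventral tegmental area (VTA), a part of the midbrain rich in dopamine neurons. Members were all symbols that begin with Timm or Tomm followed by a digit and that averaged at least 0.1 FPKM over the 59 libraries. FPKM, the unit of the deposited values, is a fragment count scaled to transcript length and library size. The rule took in 24 of the 24346 symbols in the table. Of 25 symbols with such a name, Timm8a2 fell outside, with a mean of 0.0199 FPKM. Tomm20l lay just inside, with a mean of 0.101 FPKM, and was listed at 0 in 20 libraries. The other 23 members averaged at least 1 FPKM and were tested.

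All libraries came from male mice. Cocaine, a blocker of the dopamine transporter, was given in 4 ways, each with its own saline group. Acute injection in the home cage had 5 cocaine and 6 saline libraries, chronic injection in the home cage 6 and 6, conditioning 6 and 6, and intravenous self-administration 15 and 9. Strain, age, dose, number of doses and the time of tissue collection were not in the labels. Nothing in the labels states that each library is a different animal, and the p-values therefore cover only the variation among libraries, which could be technical.

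Most mitochondrial proteins are made in the cytosol and must be imported. The translocase of the outer membrane (TOM) is their common entrance: Tomm20, Tomm22 and Tomm70a are its receptors, Tomm40 its channel, and Tomm5, Tomm6 and Tomm7 are small subunits that help to assemble and hold it. Behind it, the TIM23 translocase of the inner membrane takes proteins with a cleavable presequence into the matrix, and the TIM22 translocase inserts carrier proteins such as the adenine nucleotide translocators. The small TIM proteins are chaperones of the intermembrane space that escort hydrophobic carrier precursors from TOM to TIM22. Neurons depend on this supply because firing and transmitter handling draw heavily on mitochondrial ATP.

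The 12 dopamine neuron markers (among them Th, Slc6a3 and Slc18a2) were above 0 in every library, and their summed level ran from 644.7 to 2738 FPKM, so the level of dopamine neuron RNA differed widely between libraries. In bulk tissue, fewer cells of a type and less RNA per cell cannot be told apart. The self-administration libraries stood apart from the others on the first principal component of all tested genes (37.9% of the variance), with scores of 12.6 to 34.6, against scores of -21.4 to -6.93 for the other paradigms. The labels name no batch, so paradigm and batch cannot be told apart. No 2 libraries were identical, and library sums lay between 398577 and 457508 FPKM. The read depth behind the values is unknown.

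Promoter windows are shown for 4 members (the small TIM genes Timm10 and Timm8b, the TIM23 channel gene Timm23 and the TOM receptor gene Tomm22) because a motif bound by ETS-family factors, to which Gabpa (nuclear respiratory factor 2, a regulator of nuclear genes for mitochondrial proteins) belongs, recurred among them. The motif searched was CCGGAAG on both strands, in windows of 300 bases that begin 250 bases before the RefSeq transcript start and end 50 bases after it. The motif was present in 7 of the 21 members with a RefSeq window (33.3%), against 9.9% of all 27025 genes with one. Those genes were not limited to genes expressed here. The median GC content was 58.7% for member windows and 52.7% for all windows, and its part in the motif share was not tested. The 7 were Timm10, Timm10b, Timm23, Timm8b, Tomm22, Tomm34 and Tomm70a. For the NRF1 motif (bound by nuclear respiratory factor 1), only 1 palindromic string of letters was searched in full. This exact string was found in 0 of 21 members and in 1.1% of all genes. Its shorter core GCATGCGC was found in 1 member (Timm13) and 3.0% of genes. Forms of the NRF1 motif with other letters were not searched, so these counts do not show that members lack an NRF1 site. The Yy1 motif AAGATGGCG was found in 1 member (Timm50) and 1.6% of genes. A match describes these letters only and is not evidence of binding. The windows are given 5′ to 3′ on the strand of the gene, from RefSeq on GRCm38.p6, in lower case with every match to CCGGAAG or its reverse complement in capitals; overlapping matches appear as 1 longer run.
Timm10, chr2:84826771-84827070, plus strand: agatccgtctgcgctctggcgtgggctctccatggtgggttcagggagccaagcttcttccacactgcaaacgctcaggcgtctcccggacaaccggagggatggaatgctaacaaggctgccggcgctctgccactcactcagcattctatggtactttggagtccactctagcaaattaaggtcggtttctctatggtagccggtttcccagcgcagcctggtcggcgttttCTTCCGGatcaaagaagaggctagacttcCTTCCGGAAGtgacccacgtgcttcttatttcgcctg
Timm8b, chr9:50603651-50603950, plus strand: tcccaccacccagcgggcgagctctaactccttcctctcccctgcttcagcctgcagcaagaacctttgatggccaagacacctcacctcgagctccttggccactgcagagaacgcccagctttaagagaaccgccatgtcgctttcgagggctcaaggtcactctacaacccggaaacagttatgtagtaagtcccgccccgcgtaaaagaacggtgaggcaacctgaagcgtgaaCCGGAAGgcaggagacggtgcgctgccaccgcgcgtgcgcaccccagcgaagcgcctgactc
Timm23, chr14:32201842-32202141, minus strand: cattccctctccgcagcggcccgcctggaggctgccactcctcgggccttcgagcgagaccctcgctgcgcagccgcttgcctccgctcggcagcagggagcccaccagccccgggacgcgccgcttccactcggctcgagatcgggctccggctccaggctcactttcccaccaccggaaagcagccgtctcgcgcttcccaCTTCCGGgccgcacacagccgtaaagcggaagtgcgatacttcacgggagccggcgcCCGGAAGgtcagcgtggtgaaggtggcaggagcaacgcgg
Tomm22, chr15:79670618-79670917, plus strand: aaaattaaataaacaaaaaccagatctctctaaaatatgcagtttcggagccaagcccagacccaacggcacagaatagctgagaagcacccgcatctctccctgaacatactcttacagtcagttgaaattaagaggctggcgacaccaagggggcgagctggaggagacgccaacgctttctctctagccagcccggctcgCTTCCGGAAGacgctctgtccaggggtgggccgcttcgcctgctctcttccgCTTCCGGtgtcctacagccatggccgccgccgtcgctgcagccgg
The Timm10 and Tomm22 windows each held 3 matches, the Timm23 window 2 and the Timm8b window 1. In these 4 windows all matches lay between 47 bases before and 16 bases after the transcript start. Members not shown had matches outside this span: 106 bases before the start in Tomm34, 80 before in Tomm70a and 36 after in Timm10b. Tomm34 and Tomm70a also had matches inside it.

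The machinery was expressed in every library, but its genes spanned a wide range of levels. The small TIM gene Timm8b was the most abundant, with a mean over all libraries of 170.9 FPKM, followed by the receptor Tomm20 with 98.1 FPKM and the small subunit Tomm6 with 89.9 FPKM. At the low end, Timm21 averaged 9.31 FPKM, Tomm6os 3.85 FPKM and Tomm20l 0.101 FPKM. Tomm6os carries the family name but is annotated as an antisense RNA on the opposite strand of Tomm6, with which it shares 777 bases; since it is not stated whether the libraries kept strand, reads of Tomm6 and Tomm6os may not be separable. Tomm6os also overlaps Frs3 on its own strand (2054 bases) and Prickle4 (2567 bases) and Gm21981 (3474 bases) on the other, and Tomm6 shares 1648 bases with Gm21981 on its own strand. The annotated spans of Timm21 and Fbxo15 (5334 bases), Tomm40l and Nr1i3 (4691), Timm10b and Gm45799 (3086), and Tomm34 and Stk4 (848) overlap as well. Reads could have been split between the genes of each such pair. Other overlaps of members were of 423 bases or fewer.

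Within each complex, subunits differed in level. Among the TOM receptors, Tomm20 (98.1 FPKM), Tomm22 (74.2 FPKM) and Tomm70a (67.2 FPKM) all exceeded the channel gene Tomm40 (46.1 FPKM) and its relative Tomm40l (23.1 FPKM). Of the small TOM subunits, Tomm6 (89.9 FPKM) and Tomm5 (70.7 FPKM) were above Tomm7 (47.2 FPKM). In the TIM23 complex, Timm17a (84.3 FPKM) and the channel subunit Timm23 (75.9 FPKM) stood above the receptor Timm50 (27.2 FPKM), the motor anchor Timm44 (21.9 FPKM), the paralog Timm17b (12.3 FPKM) and Timm21 (9.31 FPKM), which links TIM23 to TOM. Among the small TIM genes, Timm13 (39.9 FPKM), Timm10 (35.5 FPKM) and Timm9 (32.4 FPKM) were close to each other, Timm8a1 averaged 23.7 FPKM and Timm10b 15.4 FPKM. Timm22, which encodes the core of the carrier translocase, averaged 14.4 FPKM, and Tomm34, a cytosolic cochaperone, 29.6 FPKM. These levels are all per length of transcript.

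**Figure D1:**
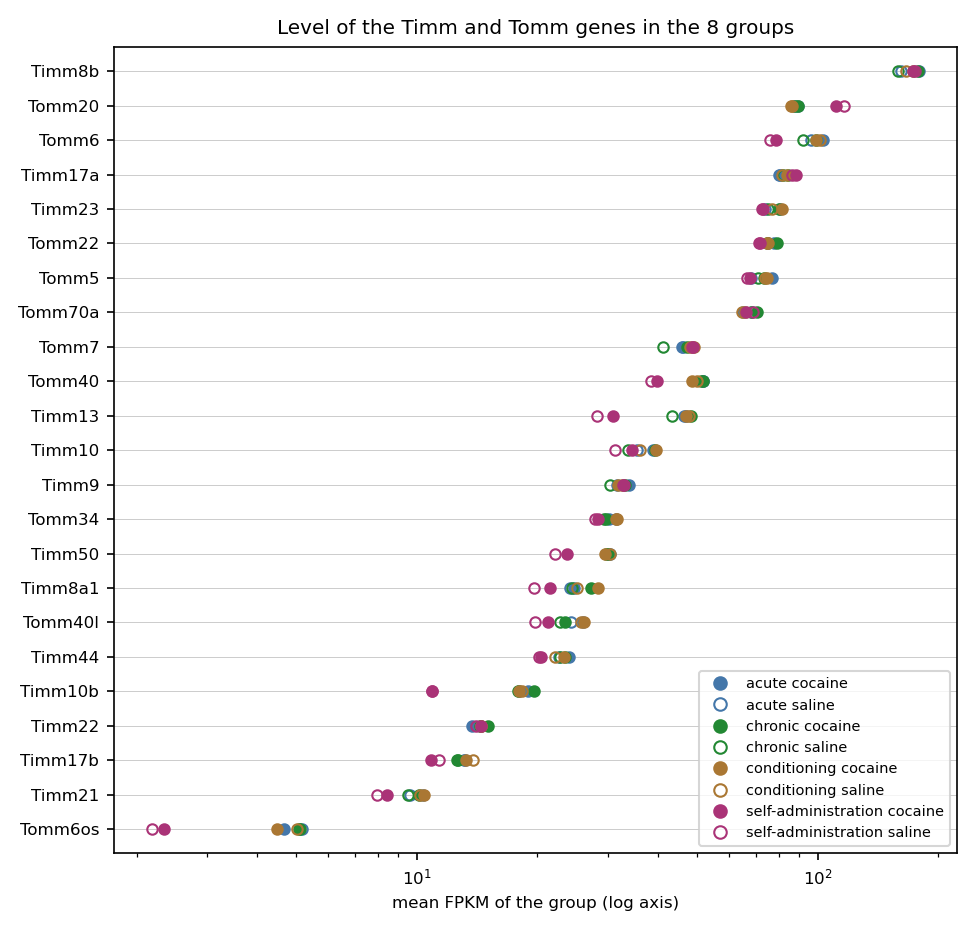
Mean FPKM of each of the 23 tested members in the 8 groups, on a log axis, with filled points for cocaine and open points for saline groups and 1 colour for each paradigm. Members are ordered by their mean over all 59 libraries, and the self-administration groups stand left of the others for Timm13, Timm10b and Tomm6os and right of them for Tomm20.

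The spread among the 8 group means was small for most members. The highest group mean exceeded the lowest by 1.09-fold for Timm22 and Tomm70a and by 1.13-fold for Timm8b, and by 2.37-fold for Tomm6os, 1.81-fold for Timm10b and 1.72-fold for Timm13. In each of these last 3, a self-administration group was the lowest.

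Cocaine was first compared with saline within each paradigm, on log2(FPKM + 1) with limma and adjustment over all genes tested. In 3 of the 4 paradigms more members had a small difference above 0 than below 0, most of all after chronic injections, where 22 of 23 members were higher in cocaine than in saline libraries. The chronic cocaine means were 16.2% above the saline means for Timm10, 15.0% for Tomm7, 12.4% for Timm8b and 11.9% for Timm13. No member passed an adjusted p of 0.05 in any of the 4 paradigms, and no other gene did (0% of the genes tested in each). Differences are on the log2(FPKM + 1) scale, which understates the change of low genes.

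After chronic injections the member median was 0.058, against 0.0024 over all 13190 genes tested, of which 51.3% had a difference above 0. An unadjusted p under 0.05 was reached by 6 members, all higher in cocaine, against 4.15% of all genes that were higher and past this limit: Timm13, Timm10, Timm23, Timm8b, Tomm7 and Timm9. After acute injection 17 of 23 members were higher in cocaine, with a median of 0.046 against -0.00086 for all genes, of which 49.4% were above 0, and 0 members had an unadjusted p under 0.05 (3.91% of all genes). In self-administration 16 of 23 were higher, with a median of 0.033 against -0.0011 (49.4% of all genes above 0). This median was 0.0067 without cocaine library 0, 0.014 to 0.021 without cocaine library 2, 4, 5 or 8 or saline library 4 or 7, and 0.051 and 0.058 without saline library 0 and 2. Here 1 member, Timm10, had an unadjusted p under 0.05 (3.43% of all genes). In conditioning 10 of 23 were higher, with a median of -0.0058 against -0.00024 (49.9% above 0) that turned positive, up to 0.011, without cocaine library 0 or 4 or saline library 0, 2 or 3, and 1 member, Timm8a1, had an unadjusted p under 0.05 (8.21% of all genes).

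**Figure D2:**
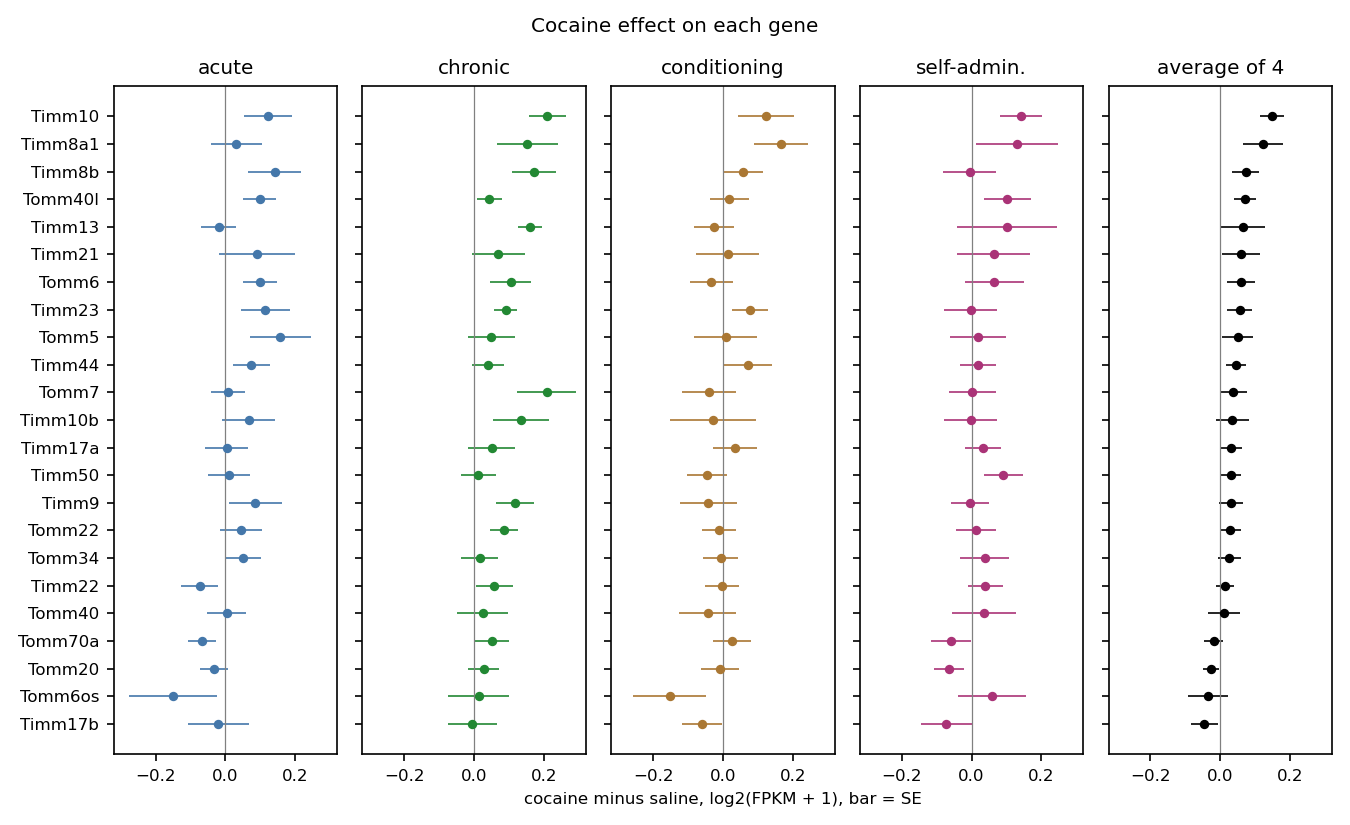
Cocaine minus saline difference in log2(FPKM + 1) of each tested member in the 4 paradigms and on average, with bars of 1 standard error, ordered by the average difference. In the chronic panel 22 of 23 points lie right of 0, and Timm10 has the largest average difference.

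Timm10, the partner of Timm9 in the main carrier chaperone, had the smallest p of the members in the average over the paradigms. In chronic libraries it ranged from 36.4 to 45.3 FPKM (median 38.4) with cocaine and from 31.1 to 35.5 FPKM (median 34.2) with saline. All 6 cocaine libraries lay above all 6 saline libraries. The difference was 0.21 ± 0.05 (SE), with a limma unadjusted p of 0.00156 and an adjusted p of 0.429. It had 37.5, 36.7, 37.0, 35.4 and 47.8 FPKM in the acute cocaine libraries, against 33.1 to 37.0 FPKM (median 35.7) in acute saline libraries. The last cocaine library stood well above the saline range, the first lay just above it, and the other 3 lay inside it.

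In conditioning libraries Timm10 ranged from 33.6 to 49.6 FPKM (median 38.5) with cocaine and from 33.2 to 39.2 FPKM (median 36.6) with saline, a difference of 0.12 ± 0.08 that was 0.058 without cocaine library 3. In self-administration it ranged from 28.6 to 43.2 FPKM (median 34.1) with cocaine and from 28.0 to 34.8 FPKM (median 30.2) with saline. The groups overlapped, and 13 of 15 cocaine libraries exceeded the saline median. That difference was 0.14 ± 0.06, with a limma unadjusted p of 0.0276 and an adjusted p of 0.999.

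The cocaine effect was averaged over the 4 paradigms with paradigm as an additive term, so paradigms with more libraries, self-administration above all, counted more. In this average 19 of 23 members were higher in cocaine than in saline libraries, against 49.6% of all 13186 genes. The member median was 0.034 (0.055 without self-administration saline library 2) and that of all genes -0.00048. Timm10 led the members with a difference of 0.15 ± 0.03, a limma unadjusted p of 6.35e-05 and an adjusted p of 0.198, the third smallest p of all genes tested. No member passed the adjusted threshold, and 1 of the genes tested did (0.00758%). An unadjusted p under 0.05 was reached by 3 members, Timm10, Tomm40l and Timm8a1, all higher in cocaine, against 6.47% of all genes that were higher and past this limit. With library weights, a setting that counts deviating libraries less, Timm10 passed the threshold with a difference of 0.12 and an adjusted p of 0.0232, while over the 14 alternative settings its adjusted p ran from 0.0232 to 0.525.

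Markers of cell types and of a neighbouring region moved alongside in this average, though none passed the adjusted threshold. Oligodendrocyte markers were higher in cocaine for 8 of 8 genes (1, Mobp, with an unadjusted p under 0.05), with sums of 3507 to 9714 FPKM in cocaine and 3869 to 9291 FPKM in saline libraries. Astrocyte markers were lower for 6 of 7, and Gja1 (-0.14 ± 0.05) and Aqp4 (-0.18 ± 0.08) had an unadjusted p under 0.05, with sums of 773.2 to 1167 FPKM in cocaine and 803.2 to 1292 FPKM in saline libraries. Dopamine neuron markers were lower for 11 of 12, none with an unadjusted p under 0.05. Of the hypothalamic genes, 4 were tested and 4 were lower, among them the genes of the neuropeptides melanin-concentrating hormone, Pmch (-1.26 ± 0.38, limma unadjusted p = 0.00180) and hypocretin, Hcrt (-0.72 ± 0.25, limma unadjusted p = 0.00492). In self-administration alone the Pmch difference was -2.34 ± 0.76 (limma unadjusted p = 0.00532). Sums were taken over Pmch, Hcrt, Foxb1, Sim1, Avp, Oxt and the serotonin neuron genes Tph2 and Slc6a4, which were listed with them. These sums ran from 3.74 to 73.4 FPKM in cocaine and from 7.47 to 205 FPKM in saline libraries. The part of these markers in the members' differences was not tested.

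**Figure D3:**
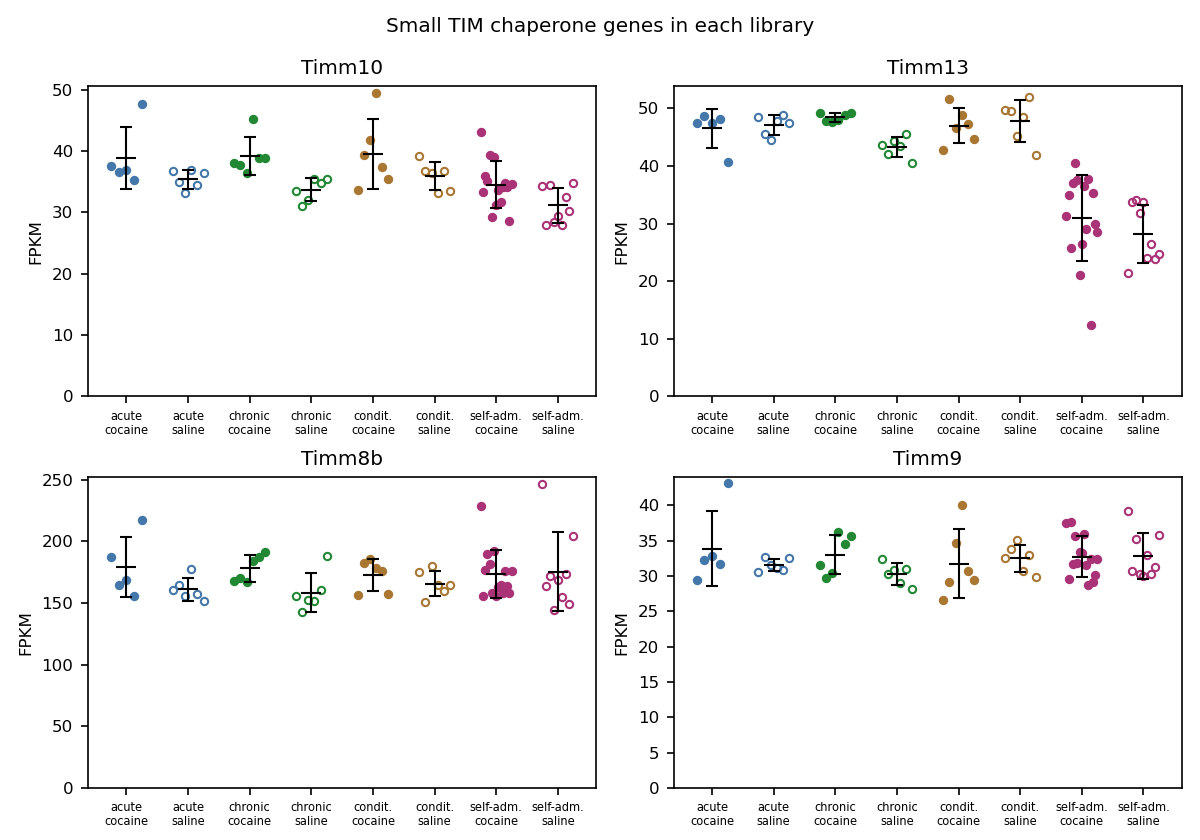
FPKM of Timm10, Timm13, Timm8b and Timm9 in each of the 59 libraries by group, with cocaine left of saline in each paradigm and bars at the mean ± SD. In the chronic groups the 6 cocaine libraries of Timm10 and of Timm13 lie above all 6 saline libraries, and the self-administration libraries of Timm13 lie below those of the other paradigms given the same treatment.

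Timm13, which forms a chaperone with Timm8a for precursors of some inner membrane proteins, ranged from 47.6 to 49.2 FPKM (median 48.4) in chronic cocaine libraries and from 40.5 to 45.5 FPKM (median 43.6) in chronic saline libraries. Again the groups did not overlap. Timm10 and Timm13 were the 2 members with separate chronic groups, a pattern seen in 0.516% of all genes. The Timm13 difference was 0.16 ± 0.03, with a limma unadjusted p of 0.000345 and an adjusted p of 0.280. In the other paradigms the Timm13 groups overlapped, and the differences were -0.020 ± 0.050 after acute injection, -0.025 ± 0.057 in conditioning and 0.10 ± 0.14 in self-administration.

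Timm8b, a relative of Timm8a1, ranged from 166.9 to 191.5 FPKM (median 177.2) in chronic cocaine libraries and from 142.4 to 187.7 FPKM (median 153.9) in chronic saline libraries. All 6 cocaine libraries exceeded the saline median, but 1 saline library reached into their range. The difference was 0.17 ± 0.06 (limma unadjusted p = 0.0163, adjusted p = 0.602). Acute cocaine libraries had 187.3, 164.9, 168.3, 156.0 and 217.1 FPKM of Timm8b, against 151.7 to 177.4 FPKM (median 158.6) in acute saline libraries, and the difference of 0.14 ± 0.08 was 0.069 without cocaine library 4. In self-administration the Timm8b means were 173.1 ± 19.6 FPKM with cocaine (SD, n = 15) and 175.2 ± 31.9 FPKM with saline (SD, n = 9).

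Timm9, which pairs with Timm10 in a hexamer of alternating subunits, ranged from 29.8 to 36.2 FPKM (median 33.1) in chronic cocaine libraries and from 28.2 to 32.4 FPKM (median 30.6) in chronic saline libraries. The difference was 0.12 ± 0.05 (limma unadjusted p = 0.0494, adjusted p = 0.671), and in conditioning and self-administration it was -0.042 ± 0.082 and -0.0042 ± 0.0537.

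Timm8a1 is the mouse counterpart of human TIMM8A, whose loss causes the Mohr-Tranebjaerg deafness-dystonia syndrome. It ranged from 25.9 to 35.3 FPKM (median 26.9) in conditioning cocaine libraries and from 22.5 to 28.4 FPKM (median 24.5) in conditioning saline libraries. All 6 cocaine libraries exceeded the saline median while the ranges overlapped. The difference was 0.17 ± 0.08 (limma unadjusted p = 0.0478, adjusted p = 0.604), and 0.10 without cocaine library 3. Its average difference over the paradigms was 0.12 ± 0.06 (limma unadjusted p = 0.0340, adjusted p = 0.347). Timm10b, the small TIM that docks at TIM22, had an average difference of 0.034 ± 0.047, and Timm22 itself one of 0.013 ± 0.027.

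In the TIM23 complex, Timm23 ranged from 76.7 to 81.9 FPKM (median 80.8) in chronic cocaine libraries and from 73.1 to 79.8 FPKM (median 74.6) in chronic saline libraries, a difference of 0.091 ± 0.033 (limma unadjusted p = 0.0161, adjusted p = 0.602). Only 1 saline library lay inside the cocaine range. In conditioning the difference was 0.078 ± 0.052, and 0.038 without cocaine library 3. In self-administration it was -0.0030 ± 0.0755. Timm44, which tethers the import motor Hspa9 to the translocase, had an average difference of 0.045 ± 0.029. Timm50, the presequence receptor of the complex, ranged from 17.9 to 27.1 FPKM (median 23.3) in self-administration cocaine libraries and from 20.1 to 24.6 FPKM (median 21.9) in self-administration saline libraries, a difference of 0.090 ± 0.056. The paralogs Timm17a and Timm17b, core subunits of the translocase, had average differences of 0.031 ± 0.030 and -0.046 ± 0.039.

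In the TOM complex, Tomm7 ranged from 44.9 to 51.1 FPKM (median 45.8) in chronic cocaine libraries and from 31.4 to 47.9 FPKM (median 41.6) in chronic saline libraries. The cocaine libraries overlapped the upper part of the saline range and reached above it. The difference was 0.21 ± 0.08 (limma unadjusted p = 0.0282, adjusted p = 0.645). Tomm7 also had the smallest p of the members for a difference between the 4 cocaine effects (limma moderated F, unadjusted p = 0.163, adjusted p = 1.00), ahead of Timm8b and Timm9, and 0 members had an unadjusted p under 0.05 there (1.43% of all genes). The conditioning effect of Tomm7 minus its chronic effect was -0.25 ± 0.12 (limma unadjusted p = 0.0434, adjusted p = 1.00), the only unadjusted p under 0.05 of a member in the 6 differences between paradigms (2.18% of all genes had one in that difference).

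Tomm5 had 69.7, 72.1, 74.2, 69.1 and 99.9 FPKM in acute cocaine libraries, against 63.6 to 74.3 FPKM (median 68.4) in acute saline libraries. The difference of 0.16 ± 0.09 was 0.061 without cocaine library 4, which alone lay above the saline range. Tomm6 had 98.9, 99.3, 106.6, 97.0 and 114.7 FPKM in acute cocaine libraries, against 92.0 to 100.6 FPKM (median 95.9) in acute saline libraries, and its difference of 0.10 ± 0.05 was 0.062 without that library. Cocaine library 4 of the acute group was the highest of its group for 14 of the 23 members and the lowest for 7. Without it the acute member median was 0.027.

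The TOM receptors had differences of either sign. Tomm20 ranged from 101.2 to 122.8 FPKM (median 113.8) in self-administration cocaine libraries and from 108.6 to 141.2 FPKM (median 114.9) in self-administration saline libraries, a difference of -0.064 ± 0.044 that was -0.029 without saline library 0. Its average difference was -0.028 ± 0.023 and that of Tomm70a -0.019 ± 0.028. That of Tomm22, the central receptor, was 0.029 ± 0.029. The channel gene Tomm40 had an average difference of 0.011 ± 0.045.

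Tomm40l, which encodes a second channel protein related to Tomm40, had 25.8, 24.2, 26.4, 26.3 and 27.5 FPKM in acute cocaine libraries, against 22.1 to 25.5 FPKM (median 24.8) in acute saline libraries. Of the 5 cocaine libraries, 4 lay above the saline range. The difference was 0.098 ± 0.047, with the smallest unadjusted limma p of the members there (0.0595, adjusted p = 0.985). In self-administration Tomm40l ranged from 15.6 to 24.4 FPKM (median 21.2) with cocaine and from 17.1 to 25.5 FPKM (median 19.2) with saline, and 13 of 15 cocaine libraries exceeded the saline median. Its average difference was 0.071 ± 0.031 (limma unadjusted p = 0.0268, adjusted p = 0.325). The antisense transcript Tomm6os ranged from 3.34 to 5.67 FPKM (median 4.62) in conditioning cocaine libraries and from 4.54 to 5.72 FPKM (median 4.95) in conditioning saline libraries, a difference of -0.15 ± 0.10 that was -0.089 without cocaine library 2. Tomm20l, which was not tested, was listed at 0 in 4 of 15 cocaine and 6 of 9 saline libraries of self-administration, and in 20 libraries over all groups. At a mean of 0.101 FPKM and an unknown depth, these zeros cannot be read as a difference between treatments.

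Many members have short transcripts, and transcript length moved with the chronic difference. With all genes split by transcript length into 10 equal bins, the shortest bin, which held 7 members, had a median chronic difference of 0.074, and the longest one of -0.042. Set against the median of its own length bin, a member was higher by a median of 0.052 in the chronic comparison, with 19 of 23 above it, and by 0.026 on average over the paradigms, with 18 of 23 above it. After a correction for transcript length the chronic differences were 0.11 for Timm10, 0.11 for Timm13, 0.034 for Timm23 and 0.048 for Timm8b, and the chronic member median was 0.048. Endothelial markers were lower in the chronic cocaine libraries for 7 of 7 genes (5 with an unadjusted p under 0.05), with sums of 63.4 to 84.7 FPKM, against 80.9 to 93.7 FPKM in saline libraries. Dopamine neuron markers had differences above 0 for 11 of 12 genes, none with an unadjusted p under 0.05, with sums of 842.6 to 2718 FPKM against 673.3 to 2737 FPKM. Other listed markers of cells and regions with an unadjusted p under 0.05 in limma went both ways. Lower in cocaine were the astrocyte genes Gja1 (-0.17 ± 0.05) and Aqp4 (-0.36 ± 0.15) and the hypothalamic gene Foxb1 (-0.46 ± 0.15). Higher were the microglial C1qb (0.11 ± 0.04) and the oligodendrocyte Cldn11 (0.097 ± 0.045). The part of any of these markers in the members' differences was not tested.

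Import factors outside the Timm and Tomm names were mostly on the same side on average over the paradigms. Of 22 such genes, 19 were higher in cocaine than in saline libraries (49.6% of all genes), with a median of 0.042. An unadjusted p under 0.05 was reached by 4, all higher (6.47% of all genes), and 0 passed the adjusted threshold. Timmdc1, 1 of the 22, was listed for its symbol but is known as an assembly factor of respiratory complex I; without it 18 of 21 were higher. The 4 were Dnlz, whose yeast counterpart keeps the matrix Hsp70 soluble (0.11 ± 0.04), the matrix peptidase Mipep (0.072 ± 0.027), Dnajc15, a J protein of the import motor (0.11 ± 0.05), and the outer membrane assembly factor Mtx3 (0.071 ± 0.034). In the chronic comparison 20 of the 22 were higher in cocaine (51.3% of all genes). There 4, all higher, had an unadjusted p under 0.05 (4.15% of all genes). Romo1, the counterpart of the TIM23 subunit Mgr2 of yeast, had 0.31 ± 0.06 (limma adjusted p = 0.241). The Hspa9 exchange factor Grpel1 had 0.11 ± 0.04, the motor J protein Dnajc19 0.13 ± 0.05 and Mtx2 0.13 ± 0.06. Romo1 was lower in cocaine in conditioning (-0.13 ± 0.06, limma unadjusted p = 0.0356). It had -0.044 ± 0.038 after acute injection and 0.16 ± 0.13 in self-administration.

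Other genes linked to mitochondria were listed too. Their counts on average over the paradigms stand against the same 49.6% of all genes above 0 and 6.47% higher with an unadjusted p under 0.05. All listed genes named next with such a p were higher. Of 14 genes for respiratory chain, ATP synthase and carrier proteins, 14 were higher on average in cocaine, with a median of 0.070, and 6 had an unadjusted p under 0.05. Among them were the adenine nucleotide translocator Slc25a5 (0.11 ± 0.04), the phosphate carrier Slc25a3 (0.075 ± 0.026) and the ATP synthase subunit Atp5b (0.085 ± 0.030), each with a limma adjusted p of 0.247. Of 7 genes that shape the cristae, 7 were higher, with a median of 0.079, and 2 had an unadjusted p under 0.05 (Minos1, 0.098 ± 0.037, and Immt, 0.068 ± 0.027). Of 14 genes of mitochondrial dynamics and mitophagy, 12 were higher, with a median of 0.029; the voltage-dependent anion channel Vdac2 (0.051 ± 0.024) and the fission factor Fis1 (0.062 ± 0.030) had an unadjusted p under 0.05. Of 13 chaperones and proteases of the organelle, 10 were higher, with a median of 0.027, and the chaperone Trap1 (0.078 ± 0.025) and the prohibitin Phb (0.11 ± 0.04) had an unadjusted p under 0.05.

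The 13 regulators of mitochondrial biogenesis were divided, with 7 higher and 6 lower on average and a median of 0.0016. Gabpa, a subunit of the ETS-family factor whose motif stands in the windows above, was lower in cocaine by -0.082 ± 0.026 and Nrf1 by -0.064 ± 0.026, while the nuclear receptor Esrra was higher by 0.18 ± 0.08. Each had an unadjusted p under 0.05, which 12.8% of all genes had in either direction, and the limma adjusted p was 0.247 for Gabpa, 0.298 for Nrf1 and 0.363 for Esrra.

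Self-administration libraries were then compared with those of the other 3 paradigms, in saline and in cocaine libraries separately, which share no samples. Both comparisons share the paradigm and any batch that goes with it, so neither is an independent check of the other. Most of the genes tested differed here, and the share of members that passed was close to that of all genes tested. In saline libraries 14 of 23 members passed an adjusted p of 0.05 in limma, against 59.6% of all 13202 genes tested. Among those that passed, the antisense Tomm6os, the small TIM genes Timm13 and Timm10b, the presequence receptor Timm50 and the channel gene Tomm40 were lower in self-administration, and the receptor Tomm20 was higher; the Tomm40 difference was of the other sign after a GC correction. The self-administration saline mean was 0.43 times the mean of the other 3 saline groups for Tomm6os, 0.61 times for Timm10b and Timm13, 0.74 times for Timm50, 0.76 times for Tomm40 and 1.33 times for Tomm20. A moderated F test over the 4 saline groups was passed by 13 members, against 48.9% of all genes. Of the 14 members past the threshold in saline libraries, 13 fell, against 27.8% of all genes, and 1 rose, against 31.8% of all genes. The member median was -0.15 (-0.071 with a correction for transcript length) and that of all genes 0.020. Above 0 were 53.4% of all genes and 6 members. In cocaine libraries 16 members passed (59.1% of all genes), of which 15 fell (26.9%) and 1 rose (32.2%). The member median there was -0.18 (-0.115 with the length correction) against 0.019 for all genes.

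**Figure D4:**
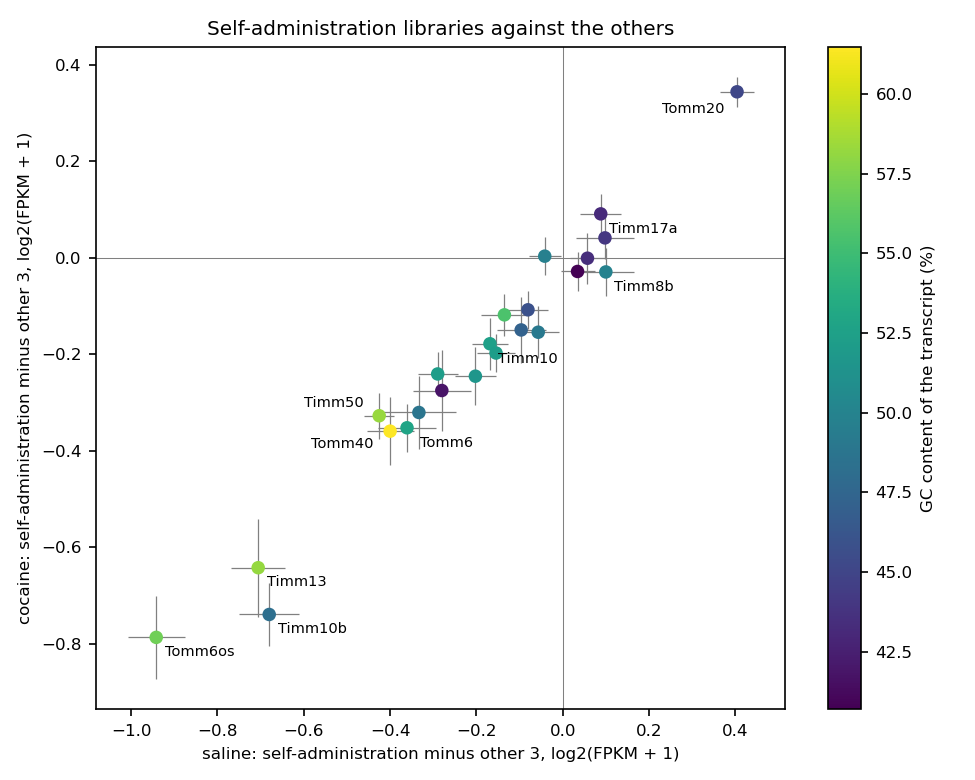
Difference between self-administration and the mean of the other 3 paradigms in log2(FPKM + 1), in saline libraries (x axis) and cocaine libraries (y axis), with bars of 1 standard error and colour for the GC content of the longest transcript. Tomm20 lies at the upper right with 0.40 and 0.34, and Tomm6os, Timm13 and Timm10b lie at the lower left.

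Among the small TIM genes, Timm13 ranged from 21.4 to 34.1 FPKM (median 26.4) in self-administration saline libraries, against 40.5 to 51.9 FPKM (median 45.5) in the 18 other saline libraries. The groups did not overlap, which held for 4 members in saline libraries (Timm13, Timm50, Tomm20 and Tomm6os; 8.53% of all genes). In cocaine libraries Timm13 ranged from 12.4 to 40.57 FPKM (median 31.3) in self-administration, against 40.63 to 51.6 FPKM (median 47.9) elsewhere. Timm13 and Tomm20 were the 2 members separate there (4% of all genes). The Timm13 difference was -0.71 ± 0.06 in saline (limma adjusted p = 3.26e-10) and -0.64 ± 0.10 in cocaine libraries (adjusted p = 2.78e-06).

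Timm10b ranged from 9.53 to 14.9 FPKM (median 10.3) in self-administration saline libraries, against 13.4 to 20.7 FPKM (median 18.6) in other saline libraries. The ranges met at their ends, and all 9 self-administration libraries lay below the median of the others. The difference was -0.68 ± 0.07 (limma adjusted p = 4.44e-09), and -0.74 ± 0.06 in cocaine libraries (adjusted p = 5.40e-11). Timm8a1 ranged from 14.2 to 25.6 FPKM (median 18.3) in self-administration saline libraries and from 18.8 to 28.4 FPKM (median 24.7) in other saline libraries, a difference of -0.33 ± 0.09 (limma adjusted p = 0.00177).

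Timm10 fell by 0.17 in self-administration saline libraries (SE 0.04, limma adjusted p = 0.000949) and by 0.18 in cocaine libraries (SE 0.05, adjusted p = 0.00574). It ranged from 28.0 to 34.8 FPKM in self-administration saline libraries, against 31.1 to 39.2 FPKM in the others. With a correction for transcript length these differences were 0.011 and 0.0094, of the other sign and not past the threshold. Timm8b and Timm9 did not pass in either set: their saline differences were 0.10 ± 0.06 and 0.057 ± 0.040, and their cocaine differences -0.029 ± 0.050 and -0.00089 ± 0.05296.

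In the TIM23 complex, Timm50 ranged from 20.1 to 24.6 FPKM (median 21.9) in self-administration saline libraries, against 26.4 to 31.98 FPKM (median 30.3) in other saline libraries. The difference was -0.43 ± 0.03 (limma adjusted p = 4.75e-11), and -0.33 ± 0.05 in cocaine libraries (adjusted p = 7.83e-07); after a GC correction it was -0.21 and -0.15. Timm21 fell by 0.28 in both sets (SE 0.07 in saline and 0.08 in cocaine libraries), with a median of 7.47 FPKM against 9.82 FPKM in saline libraries. Timm17b fell by 0.20 in saline and by 0.25 in cocaine libraries, while its paralog Timm17a did not pass in either (0.088 ± 0.047 and 0.091 ± 0.042, limma adjusted p = 0.108 and 0.0612). Timm44 fell by 0.15 in saline and by 0.20 in cocaine libraries, and the saline call was lost with the length correction (-0.071, adjusted p = 0.190). Timm23 fell by 0.15 in cocaine libraries (limma adjusted p = 0.0144), a call lost with quantile scaling (-0.093, adjusted p = 0.0691) and the length correction (-0.013, adjusted p = 0.805), and it had a saline difference of -0.057 ± 0.048. Timm22 passed in neither, with -0.042 ± 0.037 in saline and 0.0034 ± 0.0392 in cocaine libraries.

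Tomm20 was the 1 member that rose. It ranged from 108.6 to 141.2 FPKM (median 114.9) in self-administration saline libraries, against 79.8 to 95.1 FPKM (median 88.4) in other saline libraries, and from 101.2 to 122.8 FPKM against 77.6 to 96.3 FPKM in cocaine libraries. No self-administration library reached down to the others in either set. The difference was 0.40 ± 0.04 in saline (limma adjusted p = 1.01e-09) and 0.34 ± 0.03 in cocaine libraries (adjusted p = 6.62e-11). The other receptors moved less: Tomm70a had 0.034 ± 0.039 and -0.028 ± 0.041, and Tomm22 had -0.081 ± 0.046 in saline libraries and fell by 0.11 in cocaine libraries (limma adjusted p = 0.0187). That call was lost with quantile scaling (-0.043, adjusted p = 0.219), upper-quartile scaling (-0.078, adjusted p = 0.0629) and the length correction (-0.0051, adjusted p = 0.899).

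The channel gene Tomm40 ranged from 30.05 to 43.5 FPKM (median 38.7) in self-administration saline libraries, against 43.3 to 60.6 FPKM (median 50.2) in other saline libraries. The highest self-administration library reached just into the range of the others. The difference was -0.40 ± 0.05 (limma adjusted p = 5.25e-07), and -0.36 ± 0.07 in cocaine libraries (adjusted p = 6.62e-05). Tomm40 has the highest transcript GC content of the members, 61.5%, and with a GC correction chosen after seeing the data its differences were 0.064 (adjusted p = 0.0592) and 0.043 (adjusted p = 0.242), of the other sign. Tomm40l fell by 0.29 in saline and by 0.24 in cocaine libraries.

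Tomm6 fell by 0.36 in self-administration saline libraries (SE 0.07, limma adjusted p = 4.65e-05) and by 0.35 in cocaine libraries, with 60.1 to 97.6 FPKM (median 71.9) in self-administration against 80.3 to 112.1 FPKM (median 97.5) in the other saline libraries; with the length correction it fell by 0.19 and 0.17. Tomm6os fell by 0.94 in saline (SE 0.07, adjusted p = 3.24e-12) and by 0.79 in cocaine libraries, with 1.59 to 2.86 FPKM against 3.81 to 6.30 FPKM in saline libraries. Tomm5 and Tomm7 passed in neither set. Tomm34 fell by 0.14 in saline libraries (limma adjusted p = 0.0342) and by 0.12 in cocaine libraries, and these calls rested on the setting. The saline call was lost without self-administration saline library 0 (-0.082, adjusted p = 0.105) or library 4 (-0.11, adjusted p = 0.0899), with quantile (adjusted p = 0.129) or upper-quartile scaling (0.111), and with the length (0.132) or GC correction (0.177). The cocaine call was lost with quantile (adjusted p = 0.0864) or upper-quartile scaling (0.0718) and with the length (0.109) or GC correction (0.0597).

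GC content and transcript length moved with these differences. Of the 10 bins of all genes by length, the shortest had a median saline difference of -0.15 and the longest 0.13. The 7 members in the shortest bin had a median of -0.096. Less the median of its own length bin, a member had a median difference of -0.11 in saline libraries, with 7 of 23 above their bin. In cocaine libraries this was -0.14, with 6 of 23 above. Over the 23 members, transcript GC content and the saline difference had a Pearson r of -0.62 and a Spearman rho of -0.65, and over all 12723 genes with a GC value the r was -0.39, a description over genes that share libraries. Oligodendrocyte markers were lower in self-administration saline libraries for 8 of 8 genes, of which 7 passed, with sums of 3869 to 8362 FPKM, against 5795 to 9291 FPKM in the other saline libraries. Microglial markers were lower for 7 of 8, of which 6 passed, and of 4 tested red blood cell genes 3 rose and Hba-a1 fell (-2.70 ± 0.88, limma adjusted p = 0.0111), with sums of 33.5 to 1065 FPKM in self-administration saline libraries, against 31.9 to 262 FPKM in the others. Dopamine neuron markers were lower for 12 of 12 genes, of which 4 passed (27.8% of all genes passed and fell). These were Pitx3 (-2.58 ± 0.22), En1 (-1.12 ± 0.25), Foxa2 (-0.71 ± 0.09) and Lmx1b (-0.61 ± 0.13). The rest did not pass, and several lay near 0: Slc6a3 (-0.017 ± 0.269), Ddc (-0.032 ± 0.233), Slc18a2 (-0.045 ± 0.257) and Drd2 (-0.059 ± 0.173). The sums were 698.1 to 2484 FPKM in self-administration saline libraries and 673.3 to 2737 FPKM in the others. Of 4 tested hypothalamic genes Pmch (3.04 ± 0.64) and Sim1 (0.64 ± 0.13) rose. Sums over the same list as above, with Tph2 and Slc6a4, were 7.47 to 205 FPKM, against 3.06 to 48.8 FPKM. Of 7 astrocyte markers 4 rose, among them Slc1a3 (0.64 ± 0.06) and Aldoc (0.42 ± 0.06), and Aqp4 fell by 0.43, with sums of 890.8 to 1292 FPKM, against 803.2 to 914.3 FPKM. Of 7 endothelial markers Cldn5 (-0.63 ± 0.14) and Tek (-0.23 ± 0.06) fell. The part of these cells and regions in the members' differences was not tested.

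Among the 22 other import factors, 14 passed in saline libraries, a share close to the 59.6% of all genes: 11 fell (27.8% of all genes), led by Romo1 (-1.45 ± 0.09), the motor regulator Pam16 (-0.68 ± 0.08), Dnlz (-0.45 ± 0.05) and Mtx1 (-0.33 ± 0.04), and 3 rose (Chchd4, Pmpca and Oxa1l; 31.8% of all genes). Among the 11 was the complex I assembly factor Timmdc1 (-0.35 ± 0.04). Among the 14 genes listed for respiratory chain, ATP synthase and carrier proteins 8 passed, again close to the share of all genes. Of these 5 fell and 3 rose, with Cox17, a copper chaperone of the intermembrane space, at -1.09 ± 0.09.

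Libraries of 1 group also differed from each other in a shared pattern. Each member's deviations from its 8 group means were correlated with those of every other tested member over 59 libraries, which gave 253 pairs, a median Pearson r of 0.22, 67 pairs over 0.5 and 103 below 0. The highest r was that of Timm23 with Tomm22 (0.80), and Timm50 with Tomm40 reached 0.79. The lowest was that of Tomm34 with Tomm70a (-0.63). By average linkage the members fell into a set of 8 (Tomm34, Tomm40l, Timm10b, Timm13, Timm50, Tomm40, Timm17b and Tomm6os) and a set of the other 15. The paralogs Timm17a and Timm17b were in different sets, as were Tomm40 and its receptor Tomm22. Transcript GC content ran from 48.2% to 61.5% in the first set and from 40.7% to 52.9% in the second. These values share libraries, depth and base composition, and are given as a description with no test.

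**Figure D5:**
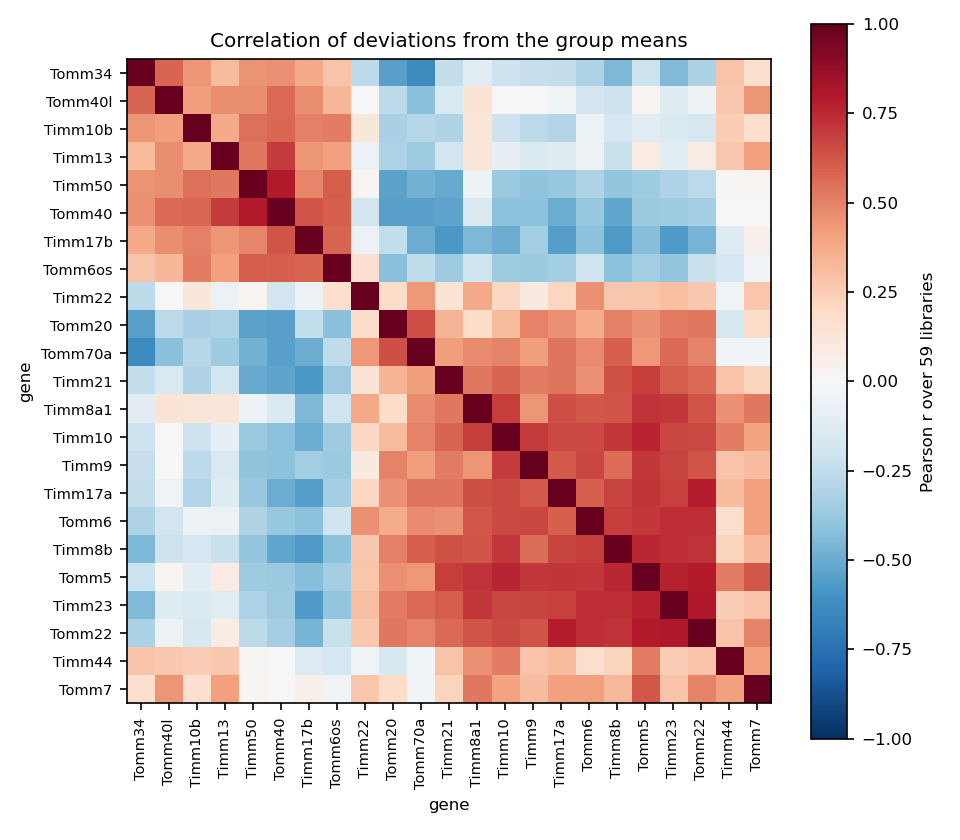
Pearson r over 59 libraries between the deviations of each pair of tested members from their group means in log2(FPKM + 1), red above 0 and blue below 0, ordered by average linkage. The 8 members at the upper left, from Tomm34 to Tomm6os, vary together and mostly against the members from Tomm20 to Tomm22.

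Of all 13185 other genes tested, those whose deviations were most like those of Timm10 over the 59 libraries were Paip2 (Pearson r = 0.83), Hax1 (0.83), Pet100 (0.82), Fh1 (0.82) and Lamtor5 (0.81).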

How the data were processed

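RNA was sequenced from 59 VTA samples. The values are FPKM as the authors deposited them, in 1 table with a row for each symbol. Bowtie, Cuffnorm and the build mm10 are named, per the submitters' processing notes, with versions, annotation, filters and scaling not given in the sources used here. FPKM depends on transcript length, GC bias and the library's total, and whole reads were judged not recoverable from the low values, so a count test was not possible, and intervals for counting error are left out. Each column was assigned to its group by name, and all 59 were used. Column numbers start at 0 and could not be tied to replicate numbers, so the main fits paired no samples.

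Values were taken as log2(FPKM + 1), with genes averaging under 1 FPKM left out, and fitted with limma 3.58.1 in R 4.3.3 (lmFit, then eBayes with trend and robust set; tests were two-sided and adjusted by Benjamini-Hochberg over all genes of a comparison, threshold 0.05). Each paradigm had its own fit, the average effect had paradigm as an additive term, and self-administration was set against the mean of the other 3 groups of the same treatment. The last comparison in cocaine libraries and a GC correction were added after seeing the data. The fits were tested on simulated data with known changes. Members and lists were chosen with earlier results of these data known. The rule gave library values for members past the threshold and, of the rest, those with the smallest p in each comparison (4 per paradigm, 6 for the average, 3 for the difference between paradigms) and the highest and lowest 3 levels. Overlaps and transcript lengths come from GENCODE M21 on GRCm38, promoter windows from RefSeq on GRCm38.p6. Alternatives were another pseudocount and filter, quantile and upper-quartile scaling, length and GC correction, library weights, plain empirical Bayes, 1 fit of all 8 groups, a block by column number, and leaving out paradigms or single libraries.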

Additional observations from a re-analysis of the deposited data

Results flagged for a closer look

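A single library stood far from the rest of its group in 22 of 168 sets of values (1 member in 1 group of 4 to 10 libraries), by Dixon's test at the 95% level, which chance passes in about 1 of 20 sets. Of the 22, 9 were acute cocaine library 4. It was the highest of its group for Timm10 (47.76 FPKM), Timm21 (14.16), Timm23 (97.16), Timm44 (27.97), Timm9 (43.1) and Tomm5 (99.93) and the lowest for Timm13 (40.63), Timm22 (11.62) and Tomm6os (2.688 FPKM).

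Chronic cocaine library 3 was the highest for Timm10 (45.3 FPKM) and Tomm20l (0.8367 FPKM), conditioning cocaine library 3 for Timm8a1 (35.27 FPKM), and conditioning cocaine library 0 was the lowest for Tomm7 (36.22 FPKM). Among saline libraries, self-administration library 0 was the highest for Tomm20 (141.2 FPKM) and Tomm70a (87.25 FPKM), and self-administration library 2 for Tomm7 (70.35 FPKM). Chronic saline library 2 was the highest for Timm23 (79.82 FPKM) and acute saline library 2 for Tomm34 (32.22 FPKM). Acute saline library 5 was the lowest for Timm10b (15.1 FPKM). Conditioning saline library 2 was the lowest for Timm10b (13.44 FPKM) and the highest for Timm21 (11.72 FPKM), and conditioning saline library 5 was the lowest for Timm22 (13.19 FPKM).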

How the results depend on the processing

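The number of genes past the threshold within a paradigm, 0 in each, became 1 in chronic (1 fit of all 8 groups; GC correction) and in conditioning (library weights; GC correction), and 1 (library weights) or 2 (1 fit of all 8 groups) in self-administration. For the average effect the 1 gene became 41 with library weights, 2 with the GC correction or without self-administration, and 0 without the acute paradigm; the cause was not tested. Leaving out single libraries gave 0 to 1 genes in chronic, with 1 when cocaine library 0 or saline library 0 was left out, and 1 to 3 on average, with 3 without self-administration saline library 2 or 4 and 2 without library 8. It gave 0 in the other paradigms and 0 for the difference between paradigms.

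With the length correction the self-administration member median was -0.071 in saline and -0.115 in cocaine libraries, and Timm10 turned to 0.011 and 0.0094. With the GC correction Tomm40 turned to 0.064 and 0.043. Over all alternatives, 1989 values of single members kept their direction and side of the threshold, 16 lost the threshold, 1 gained it and 4 reversed. Most of these values came from leaving out 1 library, and members that had not passed could not lose the threshold. The 16 and the 4 all came from the comparisons of self-administration with the other paradigms, so the pooled count does not measure how stable those calls were. The average difference ran from 0.028 to 0.12 for Timm8b and from 0.010 to 0.061 for Timm44 over 14 settings. Without single libraries the conditioning median ran from -0.018 to 0.011, the self-administration cocaine effect median from 0.0067 (without cocaine library 0) to 0.058 and that of the average from 0.028 to 0.055.

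With a block by column number, 0 genes passed in each paradigm and 1 on average, and Timm10 had an average difference of 0.16 with a limma adjusted p of 0.0553. The self-administration member median was then 0.072 and that of the average 0.049. Whether the numbers pair samples is not known. Same-numbered deviations correlated over 0.1 in 3 of 5 acute, 4 of 6 chronic, 4 of 6 conditioning and 3 of 9 self-administration pairs. The same-numbered saline library was the best match of the cocaine library in 2, 3, 2 and 1 of these pairs. No block was possible between paradigms. Unknown depth and FPKM scaling limit all levels.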
